A study of Mus musculus with 8 samples.

Results

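Small nucleolar RNA (snoRNA) genes were followed across 4 groups of mouse embryonic stem cells. A gene was taken if its GENCODE biotype is snoRNA or its symbol begins with Snora or Snord, if it lies outside positions 109452823 to 110281097 of chromosome 12 in mm10, and if it had at least 10 counts in at least 2 of the 8 libraries. This gave 195 members among 43346 genes listed. The files list 1484 snoRNA genes in all, of which 23 lie in the excluded interval, 1102 others had no count in any library and 164 others had counts below the minimum. The 3 members that reached 10 counts in only 2 libraries had totals of 43 to 67 counts, and the 14 genes that reached it in only 1 library had totals of 28 to 62 counts. Of the members, 194 also passed the filter for testing, and the remaining one, Gm23663, had 1 to 10 counts per library. In 164 members every library held at least 10 counts.

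The study asked what follows in pluripotent cells when TRIM71, an RNA-binding protein that represses target mRNAs, is lost, and whether its target Mbnl1, an RNA-binding regulator of alternative splicing, accounts for part of it. All cells were (129xC57BL/6) embryonic stem cells that carry Rosa26Cre-ERT2/BirA-V5, and each group has 2 libraries. The TRIM71 knockout is TRIM71-/-, the Mbnl1 3'UTR mutant carries a mutated Mbnl1 3'UTR on both alleles, the Mbnl1 overexpression group holds a stable transfection of MBNL1::T2A::Puromycin, and the wild type has none of these changes. Whether libraries come from separate cultures or clones, and which promoter drives the transgene, is not given by the labels. The p-values therefore measure only the spread between these libraries, which may be technical.

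snoRNAs are stable noncoding RNAs of the nucleolus. Box C/D snoRNAs carry the enzyme fibrillarin to ribosomal RNA and direct methylation of ribose, and H/ACA snoRNAs carry dyskerin and direct conversion of uridine to pseudouridine. A few, among them U3, U8, U13, U14 and U17, act in cleavage or folding of the ribosomal RNA precursor instead of, or beside, modifying it. In mammals most snoRNAs are cut out of the introns of host genes, many of which code for ribosomal proteins or nucleolar factors, while U3, U8 and U13 are made from genes of their own.

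Total counts ranged from 75056306 to 86508533 per library. Trim71 stood at 101 and 105 CPM in the knockout libraries, against 630 and 628 CPM in wild type (CPM is the read count relative to the TMM-scaled library size). Mbnl1 stood at 193 and 195 CPM under overexpression, 48.8 and 50.9 CPM in the knockout and 28.6 and 27.4 CPM in the mutant, against 25.9 and 26.1 CPM in wild type. Its log2 fold change was 0.94 in the knockout. In the mutant it was 0.11, which edgeR's quasi-likelihood test did not call (adjusted p = 0.086). The summed level of 8 stem cell markers was 5330 and 5350 CPM in the knockout, 4780 and 4770 CPM in the mutant, 4970 and 5020 CPM under overexpression and 4210 CPM in both wild-type libraries, with none of the 8 at 0. The 8 fibroblast markers summed to 8.62 and 9.37 CPM in the knockout, 5.55 and 5.25 CPM in the mutant, 8.38 and 7.76 CPM under overexpression and 4.93 and 5.29 CPM in wild type, mostly from Thy1, Pdgfrb and Col1a1. Postn, Dcn and Lum were at 0 in both mutant libraries, reached at most 0.0265 CPM in any library and were not tested, and Col1a2 (-2.00) and Col3a1 (-3.39) fell under overexpression. The 6 primitive endoderm markers summed to 22 CPM in both knockout libraries, 39.9 and 47.0 CPM in the mutant and 18.7 and 15.7 CPM under overexpression, against 30.3 and 33.5 CPM in wild type, and 5 fell and 1 rose in the knockout while 6 fell under overexpression. The 4 neural markers summed to 77.1 and 76.7 CPM in the knockout, 122 and 113 CPM in the mutant and 120 and 119 CPM under overexpression, against 120 and 113 CPM in wild type. All 4 fell in the knockout and 1 fell in the mutant. Under overexpression Sox1 (log2 fold change 0.83) and Tubb3 (0.29) rose, while Pax6 (-1.20) and Map2 (-1.50) fell, so that the sum hides opposite changes. The sums of 4 mesoderm and of 4 trophoblast markers were 3.62 to 5.32 CPM and 3.97 to 5.80 CPM over the 8 libraries, and Elf5, a trophoblast marker, was at 0 in both mutant and both wild-type libraries. Another trophoblast marker, Krt7, rose in the knockout (log2 fold change 1.47), where 2 others fell. It fell in the mutant (-2.68) and under overexpression (-1.81). Loci resembling ribosomal RNA summed to 29500 to 37900 CPM in 7 libraries and to 56900 CPM in wild-type replicate 1. These sums differ between groups, and in bulk RNA fewer cells of a type and less RNA per cell cannot be told apart. Their part in the results below was not tested, except that the fits were repeated without the ribosomal RNA-like loci.

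By symbol, 50 members are box C/D genes (Snord and U3 genes), 24 are H/ACA genes (Snora) and 121 have a symbol that gives no class. Same-strand annotation places 147 in an intron of a host gene without touching any of its exons, 39 over a host exon and 9 outside any host. Of the intronic members, 135 lie in 103 protein-coding hosts. For the 39 members over an exon, reads from the host's mRNA and from the snoRNA cannot be told apart, and for intronic members neither can the mature snoRNA and its precursor. A stretch of at least 50 bases is shared with another snoRNA gene in 48 members, U3 genes included, so that reads may be split between copies. Another 13 lie inside a gene on the opposite strand, and the strand setting of the counting is not given in the sources used here.

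For part of the members, the class given by the symbol can be read in the sequence. Box C/D RNAs carry box C near the 5′ end and box D near the 3′ end, and H/ACA RNAs end in an ACA followed by 3 bases. All snoRNA genes were searched on the transcript strand for TGATGA within the first 20 bases, CTGA within the last 14 bases, and ACA with 2 to 4 bases after it. Both TGATGA and CTGA were found in 27 of 50 box C/D members and in 0 of 24 H/ACA members, and in 20.3% of all 1484 snoRNA genes. CTGA alone was found in 46 of 50 box C/D members and in 30.7% of all snoRNA genes. The terminal ACA was found in 24 of 24 H/ACA members, in 2 of 50 box C/D members and in 43.3% of all snoRNA genes. These are letter matches within a window; a member without a match has only no such letters there. The first and last 20 bases of 3 box C/D members and the last 20 bases of 3 H/ACA members that recur in the results are printed from the GENCODE transcripts in mm10, 5′ to 3′, with the boxes in capitals.
Snord110, chr2:130275506-130275573, plus strand, 5′ end: ttgcaaTGATGActtatata
Snord110, 3′ end: gactccatgtgtCTGAgcaa
Snord17, chr2:144265979-144266216, minus strand, 5′ end: gtgaaaTGATGAttctgttt
Snord17, 3′ end: agtggtgcaaatCTGAtcac
Snord14a, chr7:116333171-116333257, minus strand, 5′ end: tcacagTGATGAtggtgttc
Snord14a, 3′ end: ttccttggatgtCTGAgtga
Snora73b, chr4:132352322-132352526, minus strand, 3′ end: aaaccatgcaggaaACAaaa
Snora43, chr2:26637847-26637985, minus strand, 3′ end: tggtttgtagcctgACAttt
Snora33, chr10:23785347-23785475, minus strand, 3′ end: ccctgaaagtggctACAgta

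Class and length go together. Box C/D members had a median length of 82.5 bases (64 to 238), against 136 bases (127 to 205) for H/ACA members. In 3 of the 6 genes printed, the RNA is longer than 130 bases: Snora73b has 205 bases, Snora43 has 139 and Snord17 has 238, whereas Snord110 has 68, Snord14a has 87 and Snora33 has 129. Levels were low and uneven. The mean level over the 8 libraries ran from 0.0641 to 66.9 CPM with a median of 0.863 CPM, 90 members reached 1 CPM, and the 12 highest held 58.6% of the summed CPM. Per kilobase of length, Gm23455 (661 CPM per kb), Gm24357 (550) and Gm24339 (394) came first, followed by Snora73b (326), Snora43 (236) and the U3 gene Rnu3a (210). The libraries were made from total RNA by a protocol not made for short RNA, which loses short fragments, so these levels rank reads per length and are no molar abundances.

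The libraries of the Mbnl1 3'UTR mutant stood apart from each other in these genes. Rnu3a, the main U3 gene, had 10.8 and 112 CPM in mutant replicates 1 and 2. Snora73b, one of the U17 genes, had 53.7 and 129 CPM in the same libraries, and Snord17, a box C/D RNA from an intron of Snx5, had 13.6 and 37.6 CPM. In each case replicate 2 was the highest of all 8 libraries. Among the 90 members of at least 1 CPM, 26 (28.9%) were at least 2-fold higher in mutant replicate 2 than in replicate 1, as were 53 of 12780 genes of that level (0.415%). Of those 53, 26 were members, 20 were genes of other short noncoding RNA types and 7 were of other types. The corresponding number of members was 1 in the knockout, 1 under overexpression and 0 in wild type.

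**Figure D1:**
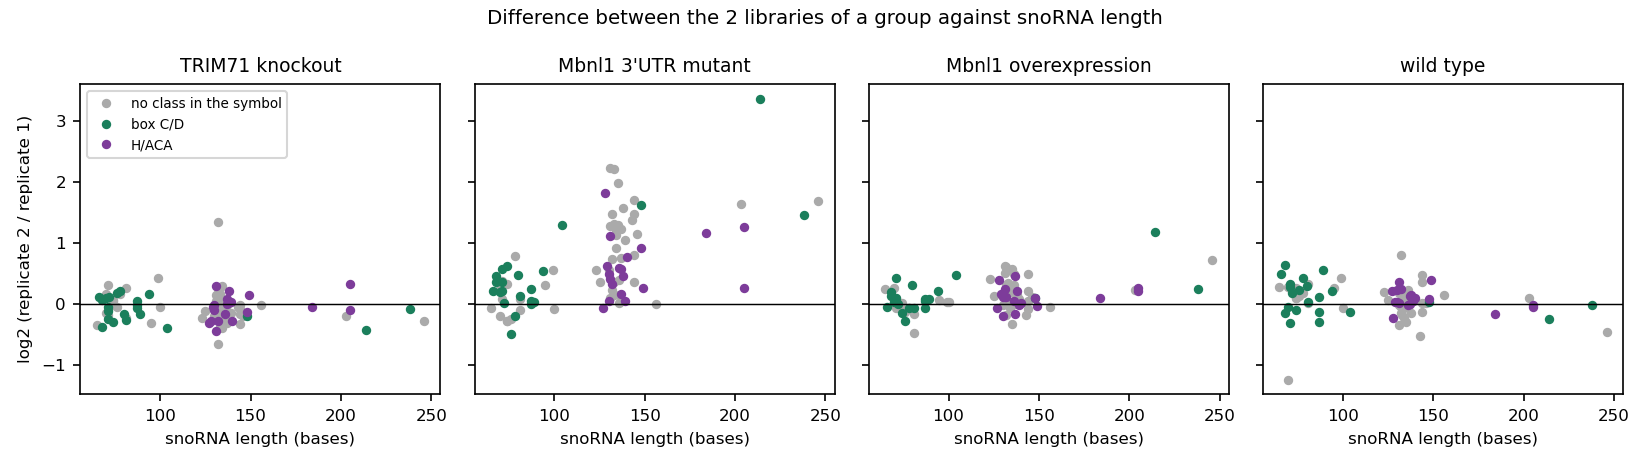
log2 ratio of replicate 2 to replicate 1 (vertical) against annotated length in bases (horizontal) for the 90 snoRNA genes with a mean of at least 1 CPM, one panel per group, points coloured by class. In the mutant panel most RNAs of more than 130 bases lie above 0, with Rnu3a at the top, and in the other panels most points lie near 0.

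The gap between the mutant libraries went with length. The median ratio of replicate 2 to replicate 1 was 1.16 for the 22 members of up to 80 bases, 1.05 for the 11 of 81 to 100 bases, 1.47 for the 9 of 101 to 130, 1.68 for the 31 of 131 to 140, 2.04 for the 10 of 141 to 180 and 2.75 for the 7 of 181 to 250. Across the 90 genes, the log2 ratio correlated with length at r = 0.591 (rho = 0.541) in the mutant, -0.108 (rho = -0.122) in the knockout, 0.406 (rho = 0.248) under overexpression and -0.231 (rho = -0.292) in wild type. These are descriptions across genes of 1 pair of libraries each. Within box C/D the gap also differed by length: the 4 members over 100 bases had a median ratio of 2.91, and the 18 up to 100 bases one of 1.16. By class, the median ratio was 1.24 for box C/D and 1.41 for H/ACA members. Other noncoding RNAs that are transcribed from their own genes moved the same way between these libraries. Rmrp (271 bases), the RNA of RNase MRP, had 987 and 3210 CPM in mutant replicates 1 and 2, and Rny3 (102 bases), a Y RNA, had 1.77 and 6.12 CPM. Rny1 (112 bases) had 1.14 and 5.41 CPM and Rprl3 (290 bases) had 27.0 and 122 CPM. The longest RNAs of this list moved by less. Rpph1 (319 bases) had 4940 and 6650 CPM, Rn7sk (331 bases) 7830 and 10100 CPM, and Terc (423 bases) 30.6 and 43.5 CPM. Among these RNAs the gap thus did not follow length. The snRNA biotype summed to 67.4 and 192 CPM in the mutant, against 102 and 93.5 CPM in wild type. The part of RNA extraction, size selection or culture in this gap was not tested.

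Summed over all members, snoRNA genes took 579 and 558 CPM in the knockout, 543 and 896 CPM in the mutant and 517 and 563 CPM under overexpression, against 670 and 683 CPM in wild type. All 4 libraries of the knockout and of overexpression lay below both wild-type libraries, and the mutant libraries lay on either side of them. The sum of the box C/D genes was 130 and 114 CPM in the knockout, 78.7 and 219 CPM in the mutant and 85.4 and 110 CPM under overexpression, against 138 and 135 CPM in wild type. The H/ACA sum was 144 and 151 CPM in the knockout, 147 and 262 CPM in the mutant and 116 and 127 CPM under overexpression, against 188 and 191 CPM in wild type. With 2 libraries on each side, the smallest p that an exact permutation test allows is 0.333 (two-sided), and the knockout and overexpression reached it for each of these sums. Without Rnu3a, the box C/D sum was 76.5 and 73.7 CPM in the knockout and 71.7 and 78.5 CPM under overexpression, against 84.1 and 90.2 CPM in wild type.

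**Figure D2:**
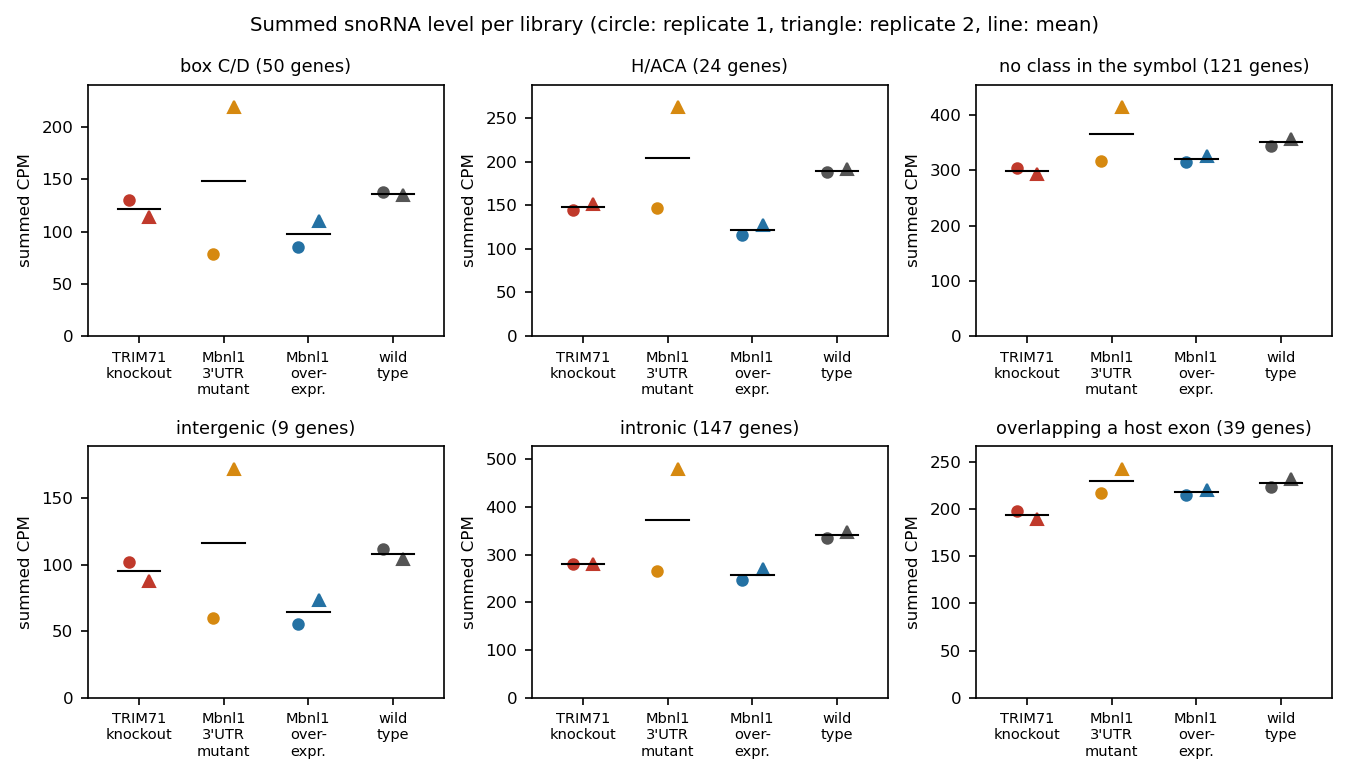
Summed CPM (vertical) of snoRNA genes by class and by location in each library, with circles for replicate 1, triangles for replicate 2 and lines for group means. Mutant replicate 2 is the highest library in every panel, and both overexpression libraries lie below both wild-type libraries in all 6.

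In the TRIM71 knockout, some snoRNA genes fell and none rose. With edgeR's quasi-likelihood test at a Benjamini-Hochberg adjusted p under 0.05 over all genes, 32 of 194 members fell (16.5%, against 20.9% of all 18055 genes tested) and 0 rose (against 24.2% of all genes). In either direction, 45.1% of all genes passed. At an unadjusted p under 0.05, 44 fell and 0 rose, and DESeq2 called 18 lower and 0 higher. The knockout libraries both lay below both wild-type libraries in 109 members (36.3% of all genes did) and both above in 6 (37.0%). The median log2 fold change was -0.31 over members, against -0.01 over all genes tested. Among members of at least 1 CPM, 26 of 90 fell (28.9%, against 24.5% of 12780 genes of that level) and 0 rose (against 29.3%). The share that fell is thus near that of all genes, below it over all members and above it at this level. The median SE was 0.305 over members and 0.0788 over all genes, so that a change of a given size passed less easily in a member. The number of falls was 21 without knockout replicate 1, 15 without knockout replicate 2 and 13 without wild-type replicate 2, 1 member rose without wild-type replicate 1, and 46 fell without either one of the mutant libraries.

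The largest falls in the knockout among members of at least 1 CPM that passed the test were in genes of the box C/D type and in genes without a class. Snord19 had 1.85 and 2.10 CPM in knockout cells, against 2.88 and 3.39 CPM in wild type (log2 fold change -0.67, SE 0.162, adjusted p = 0.00305). It lies over an exon of Gnl3, which codes for nucleostemin, a nucleolar protein of stem cells. Gm27326 in Rpl23 changed by the same log2 amount, -0.67, with 1.32 and 1.06 CPM in knockout cells, against 1.71 and 2.07 CPM in wild type (SE 0.17, adjusted p = 0.0038). Snord14a, a U14 gene over an exon of Rps13, had 1.15 and 1.09 CPM in knockout cells, against 1.82 and 1.66 CPM in wild type (log2 fold change -0.63, SE 0.151, adjusted p = 0.00234). U14 acts both in methylation and in maturation of the small ribosomal subunit's RNA. Snord70, in an intron of Nop58, had 1.92 and 1.91 CPM in knockout cells, against 2.76 and 2.98 CPM in wild type (log2 fold change -0.58, SE 0.119, adjusted p = 0.000599).

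In these 4 genes the knockout and wild-type libraries did not overlap, which was a condition for naming them. Snord69 (log2 fold change -0.59), Snord4a (-0.57) and Snord45b (-0.56) fell as well. Among the most abundant H/ACA genes, Snora43 had 30.1 and 30.6 CPM in knockout cells, against 36.8 and 38.2 CPM in wild type (log2 fold change -0.31, SE 0.0447, adjusted p = 2.2e-05). Snora41, in an intron of Eef1b2, fell by 0.37 on the log2 scale (adjusted p = 0.0283). DESeq2 did not call Snord4a (adjusted p = 0.0801). Several of these calls were lost with 1 library left out, which also weakens the test itself. Without wild-type replicate 2, the calls of Snord69, Snord4a, Snord45b, Gm27326 and Snora41 were lost. Their log2 fold changes were then -0.43, -0.39, -0.41, -0.52 and -0.24. Without knockout replicate 2 the same calls were lost, at -0.51, -0.45, -0.53, -0.52 and -0.24.

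**Figure D3:**
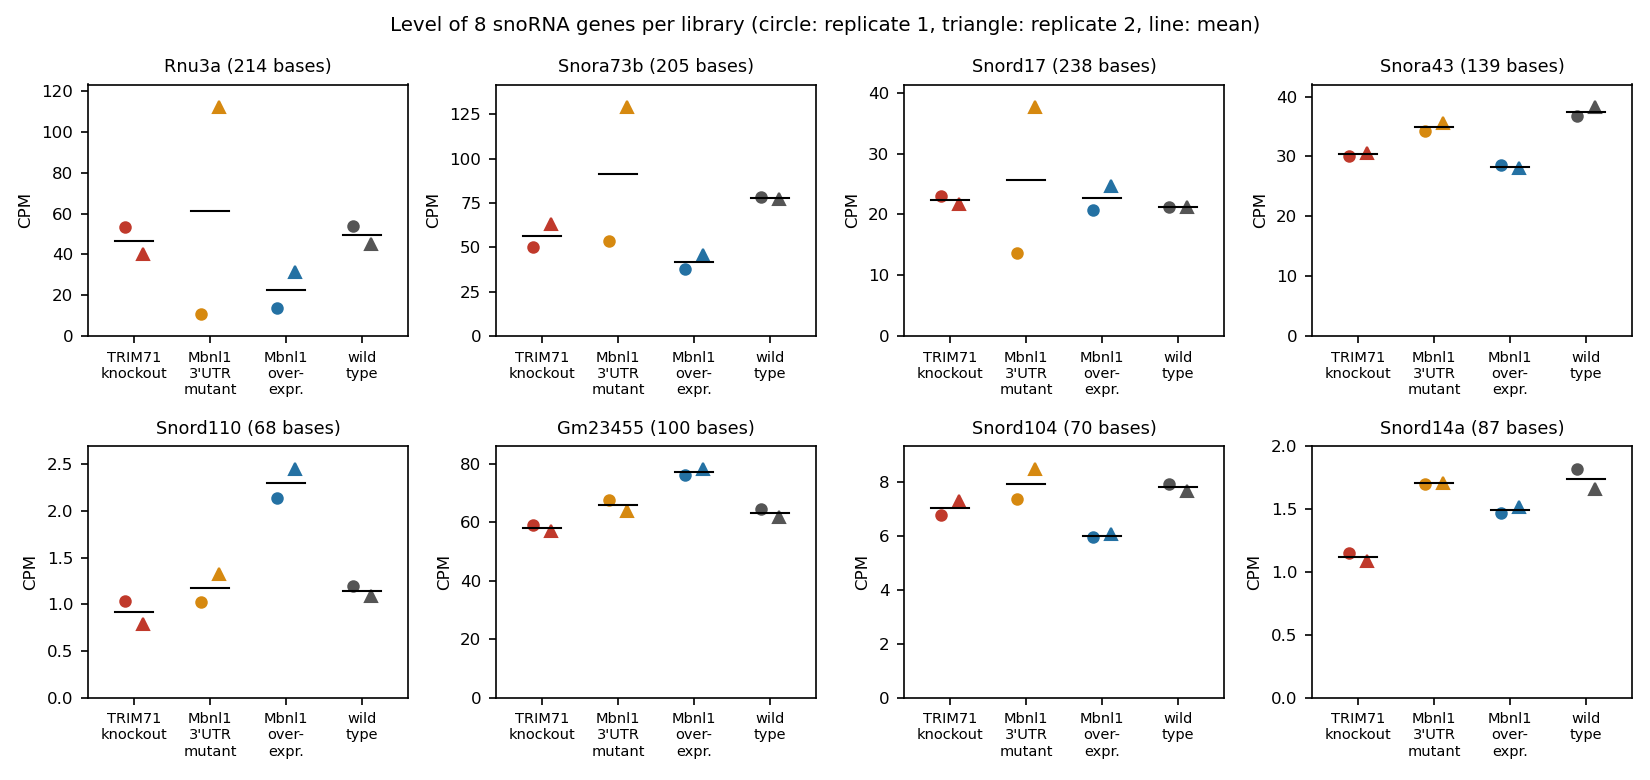
CPM per library (vertical) of 8 snoRNA genes in the 4 groups, with circles for replicate 1, triangles for replicate 2 and lines for group means. Rnu3a, Snora73b and Snord17 separate the 2 mutant libraries, Snora43 is lower in the knockout and under overexpression than in wild type, and Snord110 is higher under overexpression.

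In the Mbnl1 3'UTR mutant, no member passed the test. edgeR's quasi-likelihood test called 0 higher (against 8.32% of all genes) and 0 lower (against 7.69%), where 16.0% of all genes passed in either direction, DESeq2 called 0 in each direction, and at an unadjusted p under 0.05 there were 2 higher and 4 lower. Both mutant libraries lay above both wild-type libraries in 10 members (24.9% of all genes) and below in 27 (27.0%). The median log2 fold change was 0.00 over members and -0.01 over all genes. This count depends on which mutant library is used: without mutant replicate 1, 23 members were called higher and 1 lower, and without mutant replicate 2, 2 were called higher and 31 lower. Without wild-type replicate 1, 1 was called higher. Snord17 shows the turn: its log2 fold change against wild type was 0.27 with both libraries (adjusted p = 0.802) and -0.64 with mutant replicate 1 alone (adjusted p = 0.000201). With a single mutant library, that library is taken to vary as the other groups do.

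Under Mbnl1 overexpression, 30 of 194 members fell (15.5%, against 27.2% of all genes) and 3 rose (against 27.7%), where 54.8% of all genes passed in either direction. DESeq2 called 24 lower and 3 higher. Both overexpression libraries lay below both wild-type libraries in 95 members (38.8% of all genes) and above in 17 (37.7%), and the median log2 fold change was -0.30, against -0.01 over all genes. Among members of at least 1 CPM, 26 of 90 fell (28.9%, against 31.6% of genes of that level) and 3 rose (against 33.1%). The number of falls was 13 without wild-type replicate 2, 13 without overexpression replicate 1, and 58 without either one of the mutant libraries, whose disagreement enters the shared estimate of the spread. Without the loci that resemble ribosomal RNA, 32 members fell in the knockout and 29 under overexpression. Both comparisons use the same wild-type libraries.

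Among members that passed the test, the largest rise under overexpression was that of Snord110, whose ends with boxes C and D are printed above. It had 2.14 and 2.45 CPM under overexpression, against 1.2 and 1.09 CPM in wild type (log2 fold change 1.00, SE 0.173, adjusted p = 8.93e-05), from 192 and 213 counts, against 95 and 82. Gm25092 (1.37, adjusted p = 0.0556) and Snora5c (1.00, adjusted p = 0.142), named after their values were seen, had log2 fold changes at least as large at mean levels of 0.103 and 0.131 CPM and did not pass. The host of Snord110 is Nop56, which codes for a core protein of every box C/D particle, and Nop56 had 977 and 975 CPM under overexpression, against 546 CPM in both wild-type libraries (log2 fold change 0.84, SE 0.0361, adjusted p = 2.49e-12). The knockout had 1.04 and 0.789 CPM of Snord110 and 511 and 518 CPM of Nop56, and neither passed the test there (adjusted p = 0.188 and 0.0601).

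Falls under overexpression among members of at least 1 CPM included RNAs of both classes. Snora73a, a U17 gene over an exon of Snhg3, had 0.580 and 0.679 CPM under overexpression, against 1.23 and 1.18 CPM in wild type (log2 fold change -0.94, SE 0.188, adjusted p = 0.00038). Gm22748, in an intron of Odc1, had 2.03 and 2.45 CPM under overexpression, against 3.76 and 3.93 CPM in wild type (log2 fold change -0.78, SE 0.135, adjusted p = 9.39e-05). Snora33, over an exon of Rps12, had 3.42 and 3.85 CPM under overexpression, against 6.09 and 6.22 CPM in wild type (log2 fold change -0.76, SE 0.186, adjusted p = 0.00905). Snora43 and Snord104 were chosen for their level and fell by less. Snora43 had 28.5 and 28.1 CPM under overexpression, against 36.8 and 38.2 CPM in wild type (log2 fold change -0.41, SE 0.0447, adjusted p = 5.29e-07). Snord104, an intergenic box C/D gene by this annotation, had 5.93 and 6.04 CPM under overexpression, against 7.92 and 7.66 CPM in wild type (log2 fold change -0.38, SE 0.0811, adjusted p = 0.000671).

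Both overexpression libraries lay below both wild-type libraries in these 5 genes, which for the first 3 was a condition for naming them. Among members under 1 CPM, Snora30 in Srcap, named after its values were seen, fell by 1.03 on the log2 scale (0.312 and 0.380 CPM under overexpression, against 0.659 and 0.756 CPM in wild type, adjusted p = 0.00287). Snora21 in Rpl23 (-0.66), Snord93 (-0.58), Snord69 (-0.57) and Snora24 in the noncoding host Snhg8 (-0.55) fell as well. DESeq2 did not call Snord93 (adjusted p = 0.0668). Some of these calls were lost with 1 library left out, which also weakens the test itself. Without overexpression replicate 1, the calls of Snora33, Snora21, Snord93, Snord69 and Snora24 were lost. Their log2 fold changes were then -0.67, -0.43, -0.37, -0.41 and -0.48. Without wild-type replicate 2, the calls of Snora33, Snora21 and Snord69 were lost, at -0.74, -0.60 and -0.42. Without wild-type replicate 1, those of Snora33 and Snord93 were lost, at -0.77 and -0.41. For Snora33 the size of the fall hardly changed without either wild-type library.

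Of the snoRNAs that act in processing of the ribosomal RNA precursor, Snord14a (U14) fell in the knockout and Snora73a (U17) under overexpression, as given above, and other U3, U8, U13 and U17 genes follow. Rnu3a, a U3 gene needed for the first cleavages, had 53.5 and 40.0 CPM in the knockout, 10.8 and 112 CPM in the mutant and 13.7 and 31.3 CPM under overexpression, against 53.8 and 45.1 CPM in wild type. Both overexpression libraries lay below wild type, with a log2 fold change of -1.14, but its SE was 1.16 (adjusted p = 0.472). Rnu3b1, another U3 gene in an intron of Tex14, had 0.978 and 0.814 CPM in the knockout, 0.834 and 1.26 CPM in the mutant and 0.758 and 0.702 CPM under overexpression, against 1.23 and 1.38 CPM in wild type. Its falls passed the test in the knockout (log2 fold change -0.54, adjusted p = 0.0385) and under overexpression (-0.83, adjusted p = 0.00233). The knockout call was lost when any one knockout or wild-type library was left out (adjusted p = 0.0563 to 0.233) or overexpression replicate 1 (0.0508), and DESeq2 did not make it (0.132). The copies Rnu3b3 and Rnu3b4 passed in no comparison.

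Snord118 is U8, which is needed for maturation of the large subunit's RNAs. It had 1.21 and 1.02 CPM in the knockout, 0.580 and 1.38 CPM in the mutant and 0.435 and 0.679 CPM under overexpression, against 1.38 and 1.27 CPM in wild type. Its fall under overexpression passed the test (log2 fold change -1.25, SE 0.379, adjusted p = 0.0212). Without overexpression replicate 1 the log2 fold change was -0.95, and without wild-type replicate 1 or 2 it was -1.19 or -1.31. The call was lost in each of these fits, although leaving out either wild-type library changed the size of the fall little. Snord13 is U13, which acts in maturation of the small subunit's RNA. It had 0.491 and 0.702 CPM under overexpression, against 1.46 and 1.33 CPM in wild type, a log2 fold change of -1.22 that missed the threshold (SE 0.497, adjusted p = 0.0868). Snora73b had 50.3 and 63.0 CPM in the knockout and 38.0 and 45.5 CPM under overexpression, against 78.6 and 77.4 CPM in wild type. Neither its log2 fold change of -0.46 in the knockout nor that of -0.90 under overexpression passed the test (SE 0.459 and 0.466, adjusted p = 0.486 and 0.182). Snora73b is thus below both wild-type libraries in all 4 libraries of these groups, while the mutant libraries lie on either side.

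Grouped by length, the groups differed in which members had the lower level, as a description. The 51 members of up to 80 bases summed to 115 CPM in both knockout libraries, 147 and 141 CPM in the mutant and 133 and 130 CPM under overexpression, against 136 and 148 CPM in wild type. The 28 members of 81 to 100 bases summed to 83.6 and 82.3 CPM in the knockout, 95.8 and 96.0 CPM in the mutant and 104 and 107 CPM under overexpression, against 94.4 and 96.5 CPM in wild type. The overexpression libraries were thus the highest in this sum, but most of it is 1 gene, Gm23455, with a mean of 66.1 CPM over the 8 libraries. Gm23455 rose under overexpression, as given below, whereas 18 of the 28 members had a negative log2 fold change there. The 12 members of 181 to 250 bases summed to 159 and 152 CPM in the knockout, 97.0 and 331 CPM in the mutant and 90.0 and 123 CPM under overexpression, against 182 and 173 CPM in wild type. In the length bins given above, from shortest to longest, the median log2 fold change in the knockout was -0.37, -0.38, -0.38, -0.26, -0.16 and -0.05. Under overexpression these medians were -0.28, -0.16, -0.26, -0.32, -0.37 and -0.56. They thus became less negative with length from 101 bases on in the knockout. Under overexpression they became more negative with length from 81 bases on, while the shortest bin did not follow that order. In the bins of up to 80, 81 to 100 and 181 to 250 bases, falls passed the test in 13 of 50, 6 of 28 and 1 of 12 members in the knockout (20.9% of all genes fell). Under overexpression they passed in 11 of 50, 2 of 28 and 2 of 12 (27.2% of all genes). The longest members are also those that separate the replicates of the mutant, and whether the same property of the libraries lies behind the differences between groups was not tested.

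Box C/D and H/ACA genes did not separate. In the knockout, 9 of 50 box C/D and 4 of 24 H/ACA genes fell (20.9% of all genes did) and 0 rose, with median log2 fold changes of -0.34 and -0.27. In the mutant the medians were -0.01 and 0.01, with 0 calls in either class. Under overexpression, 12 of 50 box C/D and 9 of 24 H/ACA genes fell (27.2% of all genes did) and 1 box C/D gene rose, with medians of -0.35 and -0.42. The differences between these class medians, box C/D minus H/ACA, were -0.07, -0.02 and 0.08. In size each was below 0.15 to 0.16, the spread between replicates of the class difference in median log2 CPM. The counts of calls were not at equal precision. Under overexpression the median SE was 0.247 for box C/D and 0.192 for H/ACA genes, at median levels of 0.886 and 2.70 CPM. With the genes of no class sorted by the motifs, 69 box C/D and 91 H/ACA genes were tested and 13 fell in each class in the knockout. Under overexpression, 13 box C/D and 14 H/ACA genes fell.

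**Figure D4:**
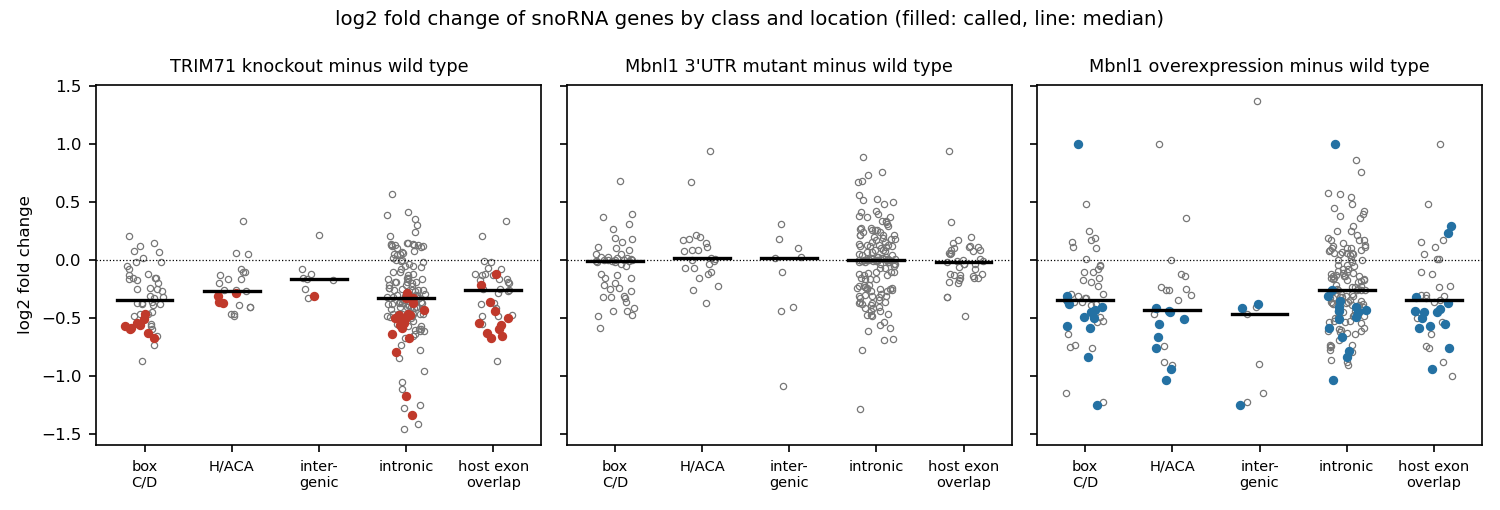
log2 fold change against wild type (vertical) of each tested snoRNA gene by class and by location, in the knockout, the mutant and overexpression, with filled points for genes that passed the test and bars for medians. The medians of box C/D and H/ACA genes lie close together in each panel, at -0.34 and -0.27 in the knockout and at -0.35 and -0.42 under overexpression.

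By location, the medians differed by more, over few intergenic genes. Location here means overlap with annotated genes, so that the U3 gene Rnu3b1 counts as intronic although U3 is made from genes of its own. In the knockout, 1 of 9 intergenic, 20 of 146 intronic and 11 of 39 genes over a host exon fell (20.9% of all genes did), with medians of -0.16, -0.33 and -0.26. In the mutant the medians were 0.02, 0.00 and -0.02, with 0 calls. Under overexpression, 3 of 9 intergenic, 15 of 146 intronic and 12 of 39 genes over a host exon fell and 0, 1 and 2 rose, with medians of -0.46, -0.26 and -0.34. The shares that fell among intergenic genes and genes over an exon lie near the 27.2% of all genes. Precision differed here too, with a median SE of 0.462 for intergenic, 0.305 for intronic and 0.188 for genes over a host exon. The intergenic minus intronic difference was 0.17 in the knockout, 0.03 in the mutant and -0.20 under overexpression. The spread between replicates of that difference in median log2 CPM was 0.18, 0.54 and 0.16. In size the difference exceeded this spread under overexpression only, by little and from 2 libraries on each side. It was -0.45 there without overexpression replicate 1. The 3 intergenic genes that fell under overexpression were Snora43, Snord104 and Snord118, the U8 gene. The sum of the 9 intergenic genes was 102 and 87.9 CPM in the knockout, 60.0 and 172 CPM in the mutant and 55.4 and 73.5 CPM under overexpression, against 112 and 104 CPM in wild type. Much of this sum is Rnu3a, whose own change did not pass the test. Without Rnu3a it was 48.7 and 47.9 CPM in the knockout, 49.2 and 60.4 CPM in the mutant and 41.7 and 42.2 CPM under overexpression, against 57.9 and 58.5 CPM in wild type.

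Members of one host did not always move together. The largest cluster was in Taf1d, which codes for a subunit of the factor that starts transcription of ribosomal RNA genes, with 8 members that all overlap an exon. Under overexpression Taf1d itself fell, with 97.6 and 98.0 CPM, against 125 and 133 CPM in wild type (log2 fold change -0.40, SE 0.0489, adjusted p = 4.39e-06). Its most abundant member Gm23455 rose there, with 76.1 and 78.3 CPM under overexpression, against 64.6 and 61.9 CPM in wild type (log2 fold change 0.29, SE 0.041, adjusted p = 1.1e-05). Gm24357 had 46.3 and 44.9 CPM under overexpression, against 37.5 and 40.3 CPM in wild type (0.23, SE 0.0823, adjusted p = 0.0407), a call lost without any one library of the knockout, overexpression or wild type (adjusted p = 0.0567 to 0.225). Gm22620 fell instead, with 2.73 and 3.48 CPM under overexpression, against 4.38 and 4.91 CPM in wild type (-0.58, SE 0.12, adjusted p = 0.000485). Gm24455, named here after its values were seen, fell by 0.32 and Gm24299 by 0.42 on the log2 scale. Gm24299 lost its call without wild-type replicate 2 (-0.28, adjusted p = 0.162) or overexpression replicate 1 (-0.36, adjusted p = 0.112). The other 3 members did not pass the test.

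In the knockout Taf1d had 92.4 and 89.6 CPM, against 125 and 133 CPM in wild type (log2 fold change -0.50, SE 0.0491, adjusted p = 6.22e-07). Of its 8 members, Gm24299 (-0.65), Gm24455 (-0.54), Gm22620 (-0.50) and Gm23455 (-0.12) fell there, and the log2 fold changes of the other 4 were -0.12 to -0.48. The call of Gm23455 was lost without either knockout library or wild-type replicate 1 (adjusted p = 0.0656 to 0.203) and by DESeq2 (0.0523). Of the 3 members in Nop58, Snord70 fell in the knockout while Nop58 had 708 and 701 CPM there, against 689 and 742 CPM in wild type (adjusted p = 0.683). Under overexpression the reverse was seen: Nop58 fell (582 and 576 CPM, log2 fold change -0.31, adjusted p = 3.55e-06), and Snord70 had 2.69 and 2.86 CPM, against 2.76 and 2.98 CPM in wild type (adjusted p = 0.726).

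Over all hosts, intronic snoRNA genes in the knockout stood lower than their hosts. For 145 intronic members in 111 tested hosts, the median log2 fold change was -0.33 for the snoRNA and -0.02 for the host, and 116 snoRNA genes were below their host. Of the 20 that fell, the host fell for 4, rose for 3 and did not pass for 13, where hosts fell for 38 of all 145 (26.2%). Under overexpression the medians were -0.26 and -0.13, and of the 15 that fell, the host fell for 10, rose for 3 and did not pass for 2, where hosts fell for 82 of all 145 (56.6%). Correlations across genes were r = 0.18 (rho = 0.204) in the knockout and r = 0.328 (rho = 0.295) under overexpression. For the 57 intronic members of at least 1 CPM, r was 0.222 (rho = 0.219) in the knockout and 0.579 (rho = 0.234) under overexpression. For the 26 members over a host exon at that level, r was 0.0793 (rho = 0.0649) in the knockout and 0.179 (rho = 0.0524) under overexpression. Members of one host share that host's value, and all points share the libraries.

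**Figure D5:**
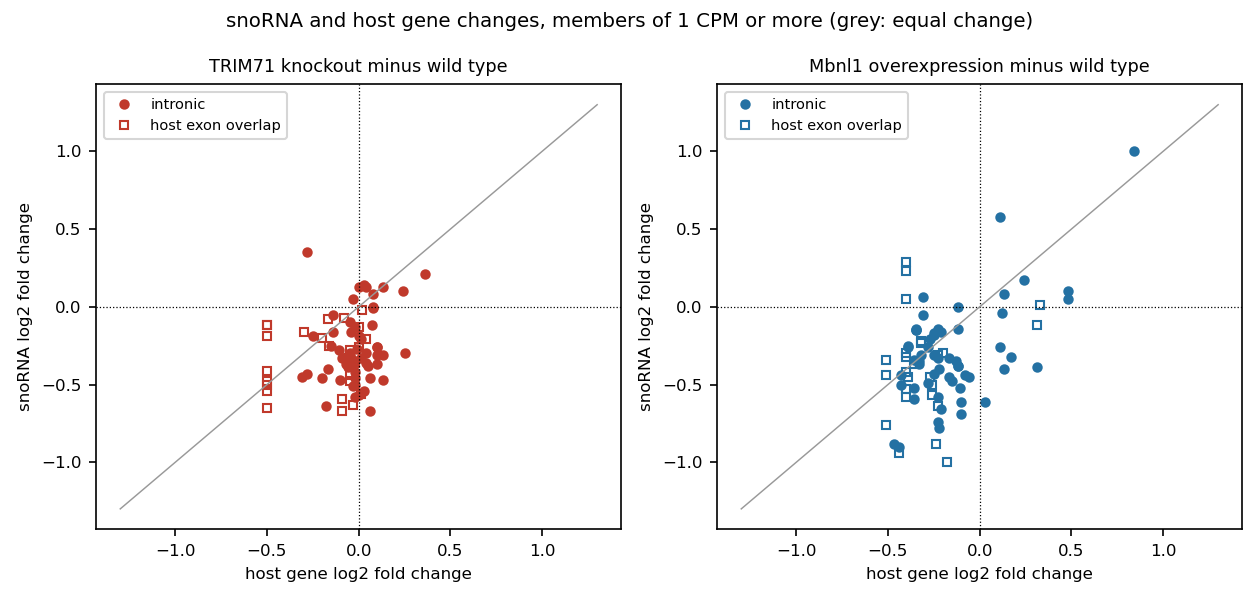
log2 fold change of snoRNA genes with a mean of at least 1 CPM (vertical) against that of their host gene (horizontal), for the knockout and overexpression, filled circles for intronic genes and open squares for genes over a host exon, with a grey line of equal change. Most knockout points lie below the line, and Snord110 with Nop56 stands at the upper right under overexpression.

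The proteins that bind and assemble snoRNAs were read from the same fit. Of the 4 box C/D core proteins, 0 passed in the knockout, where 45.1% of all genes passed in either direction. The share of all genes was 16.0% in the mutant and 54.8% under overexpression. In the mutant only Fbl (fibrillarin) rose (log2 fold change 0.13, adjusted p = 0.0264), with the call lost without wild-type replicate 1 (adjusted p = 0.214) or mutant replicate 2 (0.143). Under overexpression Nop56 rose as given above, while Nop58 (-0.31), Fbl (-0.24) and Snu13 (-0.11), the protein that binds the box C and D motif itself, fell. Fbl had 137 and 133 CPM under overexpression, against 155 and 164 CPM in wild type (SE 0.0392, adjusted p = 4.95e-05). The fall of Snu13 was lost without wild-type replicate 1 (adjusted p = 0.0623) or either overexpression library (0.0832 and 0.0866), and with scaling by library size only (0.224).

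Among the 4 H/ACA core proteins, Dkc1 (dyskerin, the pseudouridine synthase) had 384 and 378 CPM in the knockout, 394 and 383 CPM in the mutant and 357 and 352 CPM under overexpression, against 366 and 363 CPM in wild type, and passed in no comparison (adjusted p = 0.07 to 0.346). Nhp2 fell in the knockout (-0.19, adjusted p = 0.00121) and under overexpression (-0.25, adjusted p = 8.94e-05). Nop10 rose under overexpression, with 178 and 179 CPM, against 151 and 145 CPM in wild type (0.27, adjusted p = 2.56e-06). Gar1 rose in all comparisons by 0.16 to 0.20, and each of these calls was lost without wild-type replicate 1 (adjusted p = 0.364 to 0.445). DESeq2 did not call it in the knockout (0.0775) or under overexpression (0.0585). Of 12 assembly factors, 3 rose and 3 fell in the knockout (45.1% of all genes passed), 0 passed in the mutant, and 2 rose and 6 fell under overexpression (54.8% of all genes passed). Under overexpression, Naf1 and Ruvbl1 kept their calls whichever library was left out. The other 6 lost them without at least 1 library, with adjusted p = 0.0557 to 0.195 for Ruvbl2, 0.0981 to 0.128 for Coil, 0.0585 to 0.0872 for Nufip1, 0.0717 for Znhit3, 0.0568 to 0.364 for Tgs1 and 0.0909 to 0.125 for Nolc1. In the knockout, Rpap3 lost its call without wild-type replicate 1 (0.0601), Znhit6 without knockout replicate 2 (0.0589), and Tgs1 without either of these (0.185 and 0.452). Naf1, which assembles H/ACA particles, fell in the knockout (-0.17, adjusted p = 0.00145) and under overexpression (-0.25, adjusted p = 2.25e-05), and Ruvbl2, an ATPase of box C/D assembly, rose in the knockout (0.23, adjusted p = 3.59e-05).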

How the data were processed

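Total RNA of 8 libraries in 4 groups of 2 was sequenced with a stranded protocol and paired 75 nt reads, per the labels. The authors aligned reads with STAR 2.5.0 to mm10, per the submitters' processing notes, and deposited raw read counts per gene. The annotation release, strand setting and treatment of reads with several matches were not given in the sources used here. Gene identifiers were matched to GENCODE M21 without version suffix (42462 matched, 884 not), which gave symbols, coordinates, hosts and sequences.

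Of 27979 genes with a count, 18055 passed filterByExpr (minimum count 10, minimum total 15). Counts were scaled by TMM and fitted in 1 robust quasi-likelihood model over all 4 groups (edgeR 4.0.16 in R 4.3.3, limma 3.58.1, 4 residual degrees of freedom, biological coefficient of variation 4.172%). p-values were adjusted by Benjamini-Hochberg over all genes tested and called under 0.05, and the SE is the log2 fold change over the root of the F statistic. Scripts were tested on simulated data. Alternatives were DESeq2 1.42.0, other scalings and filters, a replicate block, fits of 2 groups and leaving out each library. Named members were the 12 most abundant, up to 8 called in each direction at 1 CPM or more whose libraries did not overlap with wild type, the 3 highest per class and location, and those known to act in precursor cleavage. Members, lists and rules were chosen with earlier results of these data known. Precision rests on 2 libraries per group; a count of few reads adds counting error.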

Additional observations from a re-analysis of the deposited data

How the results depend on the processing

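The number of snoRNA genes that fell in the knockout was 32 and ranged from 13 to 46 as single libraries were left out, with 18 by DESeq2. Under overexpression 30 fell, with 13 to 58 as single libraries were left out and 57 when only the 2 groups compared were fitted. The 3 rises under overexpression became 6 with scaling by library size only and 2 to 4 as single libraries were left out. Rises in the knockout were 0 to 1 on leaving out a library. In the mutant, rises ranged from 0 to 23 and falls from 0 to 31 on leaving out a library, and 1 gene rose with no filter on low counts. Box C/D minus H/ACA medians ranged from -0.11 to 0.01 in the knockout, -0.14 to -0.02 in the mutant and 0.01 to 0.11 under overexpression, and intergenic minus intronic medians from 0.06 to 0.22, from -0.42 to 0.03 and from -0.45 to -0.18. Without mutant replicate 2, the log2 fold change of the mutant turned negative and passed the test in 7 named genes, and without mutant replicate 1 it was positive: -0.64 and 0.83 for Snord17, -0.71 and 0.94 for Gm26448, -1.01 and 0.81 for Snora78, -0.48 and 0.66 for Gm24336, -0.33 and 0.43 for Gm25791, -1.03 and 0.61 for Snord15a, and -0.35 and 0.57 for Snora57. Of 82 calls of named genes, 42 passed under every alternative that gave a value. Replicate numbers did not pair libraries: deviations of libraries with the same number correlated at -0.0343 to 0.06 over 18055 genes, and with a replicate block 35 snoRNA genes fell in the knockout and 33 under overexpression. Apart from the construction of each alternative, the cause of these shifts was not tested. Depth limits the 104 members under 1 CPM. Of these, 6 fell in the knockout (5.77%, against 20.9% of all genes tested) and 4 under overexpression (3.85%, against 27.2%). These shares of all genes cover every level and not only genes under 1 CPM.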
